A study of Rattus norvegicus with 28 samples.

Results

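The genes described here belong to the programme of axon growth and regeneration: Tubb6, Tubb3, Tubb2b, Gap43, Atf3, Sox11, Sprr1a, Gadd45a, Stmn2 and Stmn4. They were found on the gene expression arrays as the non-control probes whose accession maps to one of these rat symbols, which gave 11 probes of 10 genes among 30367 non-control probes (15637 named genes). Stmn2 had 2 probes and every other gene had 1. Of these, 10 probes of 9 genes passed the filter on dim probes, which kept 17322 probes in all, and the Sox11 probe did not pass it. Sprr1a passed only because it was above background in the injured groups, so its place among the measured genes was not independent of its level after injury.

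When an axon is damaged, the neuron can switch on a set of genes that was active while the axon first grew. Stress-responsive transcription factors such as Atf3 and Sox11 head this programme, and its products include tubulins, the building blocks of microtubules, proteins of the growth cone such as Gap43, and the stathmins, which bind tubulin dimers and promote microtubule disassembly. Neurons of the peripheral nervous system are known for a strong response of this kind, while most neurons of the adult brain and spinal cord mount a weak one, and several of these genes are also made by glia and by cells outside the nervous system.

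The rats were adult male Sprague-Dawley animals and the tissue was whole hippocampus, with 1 rat per array. Sham rats (n = 2) were prepared for surgery without injury, and TBI rats (n = 3) received a parasagittal fluid-percussion injury, a pressure pulse of fluid onto the exposed dura that models traumatic brain injury. The TBI+Imipramine, TBI+Prozac and TBI+Zoloft groups (n = 3 each) had the same injury and then an antidepressant, 10 mg/kg, 1 h later, and all tissue was taken 24 h after surgery. Imipramine is a tricyclic antidepressant, while Prozac (fluoxetine) and Zoloft (sertraline) are selective serotonin reuptake inhibitors, and neither Sham rat on these arrays is labelled as drug-treated. The labels do not say whether the Sham and TBI rats received vehicle. The study's methods mention vehicle as the alternative to an antidepressant but do not state which groups received it. By the labels alone, the drug and its injection cannot be told apart.

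The arrays were 1-colour Agilent arrays, and between 14676 (TBI replicate 1) and 18196 (TBI+Imipramine replicate 2) probes were above background. They lay on 3 slides. All 3 TBI arrays shared slide 1 with replicate 1 of TBI+Prozac, the remaining 8 arrays of drug-treated rats made up slide 2, and the 2 Sham arrays were alone on slide 3 and were scanned on a different day. Slide and injury therefore cannot be told apart in any comparison with Sham. Each level is a log2 signal minus that array's own reference, the 75th percentile among its probes above background. Even 2 probes of the same gene, Stmn2, gave different mean levels in Sham (2.29 and 1.87). The level of one gene is therefore not comparable with that of another. The scaling moved the median of all probes by 0.20 (TBI+Imipramine vs TBI), 0.15 (TBI+Prozac vs TBI), 0.18 (TBI+Imipramine vs Sham), 0.14 (TBI+Prozac vs Sham), 0.18 (TBI+Imipramine vs TBI+Zoloft) and 0.11 (TBI+Prozac vs TBI+Zoloft) on the log2 scale, and by at most 0.06 in the other comparisons. In hippocampal RNA as a whole, fewer cells of a type and less RNA per cell cannot be told apart.

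The tissue carried its neuronal markers, with Snap25, Slc17a7, Camk2a, Gad1 and Eno2 above background on all 14 arrays. Dcx, a marker of newly born neurons, and Prox1, a marker of dentate granule cells, were above background on 0 of 14 arrays, so the probes of these genes gave no measure of those cells.

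After injury alone, 5 of the 9 measured genes rose relative to Sham: Tubb6, Atf3, Sprr1a, Gadd45a and Tubb2b. None of the 9 fell by its brighter probe, while Tubb3, Gap43, Stmn2 and Stmn4 did not pass the test. Across all 17322 probes, 8.3% rose and 8.32% fell in the same comparison. The median difference of the 9 genes was 1.05, against 0.00 over all probes. Without Sprr1a, which could not have entered the test had it stayed dim, 4 of 8 genes rose. These are counts of members with adjusted p below 0.05 in limma's moderated test, with Benjamini-Hochberg adjustment over all probes kept.

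Tubb6, a class V beta-tubulin found in many tissues outside the nervous system, had the lowest p-value of all 17322 probes in this comparison and the 13th highest difference. Its level was −5.20 and −4.48 in the Sham rats and −0.06, 0.19 and −0.42 in the TBI rats. It was 0.10, 0.33 and 0.36 after imipramine, −0.08, −0.40 and −0.29 after Prozac, and −0.24, −0.11 and 0.42 after Zoloft. Every injured rat stood far above both Sham rats, and the 12 injured rats lay within a narrow band. The TBI minus Sham difference corresponded to 26.9-fold, with a 95% confidence interval of 4.20 to 5.30 on the log2 scale.

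Tubb2b, a beta-tubulin abundant in the developing brain, was 2.30 and 2.15 in the Sham rats and 2.95, 3.38 and 3.50 in the TBI rats. After imipramine its level was 3.43, 3.52 and 3.34, after Prozac 3.27, 3.31 and 3.59, and after Zoloft 3.25, 2.80 and 2.48. Each injured rat again lay above both Sham rats, with the lowest of them, Zoloft replicate 3, closest. Tubb2b rose 2.07-fold in TBI (log2 difference 1.05, SE 0.22, limma adjusted p = 0.0073), and without Sham replicate 2 the difference was 0.98 with adjusted p = 0.064.

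Tubb3, the beta-tubulin used as a marker of neurons, was 2.37 and 2.60 in Sham rats and 1.73, 2.21 and 2.66 in TBI rats. It was 2.34, 2.18 and 2.09 after imipramine, 2.57, 2.31 and 2.30 after Prozac, and 2.36, 2.05 and 2.63 after Zoloft. The TBI and Sham ranges overlapped, and the log2 difference of −0.29 (95% confidence interval −0.81 to 0.24) did not pass the test. The 3 tubulins therefore took different courses within one tissue, with Tubb6 and Tubb2b above Sham and an interval for Tubb3 that spans both directions.

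Gap43, a membrane protein of the growth cone and a classic marker of axon growth, was 2.43 and 1.62 in Sham rats and 2.06, 2.49 and 2.89 in TBI rats. Its level after a drug was between 2.24 (imipramine) and 2.65 (Zoloft) in all 9 rats. Sham replicate 1 lay inside the range of the injured rats and Sham replicate 2 below it. The TBI minus Sham difference was 0.45 (95% confidence interval −0.11 to 1.01, limma adjusted p = 0.26), which leaves room for a difference of up to 1.01 that these 2 Sham rats could not resolve.

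Atf3, a bZIP transcription factor induced by stress and nerve injury, was −5.23 and −4.99 in Sham rats and −2.67, −1.87 and −2.45 in TBI rats. Its level was −1.73, −2.24 and −2.39 after imipramine, −1.92, −3.12 and −2.62 after Prozac, and −3.00, −3.21 and −1.44 after Zoloft. The Sham rats lay below all 12 injured rats, and Zoloft held both the lowest and the highest injured rat. Atf3 rose 6.89-fold in TBI (log2 difference 2.78, SE 0.48, limma adjusted p = 0.0026).

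Sox11, an HMG-box transcription factor of developing neurons, was above background on 7 of 14 arrays and on neither Sham array. The Sham rats gave −6.95 and −7.50, while TBI replicates 2 and 3 gave −5.72 and −5.77 and TBI replicate 1, not above background, gave −6.77. Zoloft replicate 3 stood out at −4.17, with the other 2 Zoloft rats not above background. With arrays below background in Sham and in each injured group, no fold change is given for Sox11.

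Sprr1a, a small proline-rich protein of the skin barrier that is also known from injured sensory neurons, was the other dim member. Of the 6 members with a RefSeq promoter window, Sprr1a was the only one that held any of the 4 motifs searched. The windows ran from 250 bases before the start of the gene to 50 bases after it, and the search covered both strands for the AP-1 motif (TGANTCA), the CRE (TGACGTCA), the STAT motif (TTCNNNGAA) and the TATA box (TATAAA). The Sprr1a window held the AP-1 motif starting 147 and 117 bases before the gene start and a TATA box starting 46 bases before it. Among all 27457 promoter windows, 7.33% held the AP-1 motif, 1.91% the CRE, 8.68% the STAT motif and 14.3% the TATA box. Gadd45a, Sox11, Tubb2b, Tubb6 and Tubb3 had windows without a match, which says only that these letters are not in those windows. The 250 bases before the start are shown for Sprr1a, with matches in capitals, and for Gadd45a, another gene that rose, whose window held no match. Both sequences are from RefSeq, build GRCr8, minus strand, 5′ to 3′.
Sprr1a, chr2:180752626-180752875: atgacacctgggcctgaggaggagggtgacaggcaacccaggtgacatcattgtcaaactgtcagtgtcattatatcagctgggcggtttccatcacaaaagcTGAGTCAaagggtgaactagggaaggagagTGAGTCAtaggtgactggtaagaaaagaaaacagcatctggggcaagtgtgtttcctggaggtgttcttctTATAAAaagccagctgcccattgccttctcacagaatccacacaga
Gadd45a, chr4:97486800-97487049: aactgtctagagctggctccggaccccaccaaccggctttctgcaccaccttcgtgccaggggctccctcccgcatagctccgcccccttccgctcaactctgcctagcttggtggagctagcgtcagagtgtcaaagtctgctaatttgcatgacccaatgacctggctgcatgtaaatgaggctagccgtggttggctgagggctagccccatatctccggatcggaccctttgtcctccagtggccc

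Sprr1a was not above background in either Sham rat (−6.59 and −7.25) and was above it in all 12 injured rats. The TBI rats gave −5.25, −4.52 and −3.04. Imipramine gave −4.01, −4.52 and −4.88, Prozac −5.82, −5.35 and −5.83, and Zoloft −5.36, −5.18 and −3.16. The spread was wide, with TBI replicate 3 and Zoloft replicate 3 far above the rest of their groups and all 3 Prozac rats below every TBI rat. The bounds given here and below compare a group mean with the lowest signal counted as above background in Sham (−6.36). They leave out the spread between rats. By this bound the mean of Sprr1a was at least 4.26-fold higher in TBI (limma adjusted p = 0.018). That call was lost without Sham replicate 1 (adjusted p = 0.06) or Sham replicate 2 (adjusted p = 0.13), and with a normexp background correction, where the difference was 0.87 (adjusted p = 0.11).

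Gadd45a, a protein induced by growth arrest and DNA damage, was −3.39 and −3.18 in Sham rats and −1.26, −0.26 and −0.70 in TBI rats. It was −0.01, −0.24 and −0.66 after imipramine, −0.24, −1.16 and −0.74 after Prozac, and −1.39, −1.04 and −0.20 after Zoloft. No injured rat came near the Sham rats. Gadd45a rose 5.84-fold in TBI (log2 difference 2.55, SE 0.38, limma adjusted p = 0.0011).

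Stmn2, a stathmin of growing axons also called SCG10, was read by 2 probes. The brighter, Stmn2 probe 1, gave 2.29 and 2.30 in Sham rats and 1.90, 2.12 and 2.33 in TBI rats, a difference of −0.18 (95% confidence interval −0.49 to 0.14) with overlapping ranges. Stmn2 probe 2 gave 1.86 and 1.88 in Sham rats and 1.21, 1.35 and 1.63 in TBI rats, and all TBI rats lay below both Sham rats. By this probe Stmn2 fell by 0.47 log2 units (limma adjusted p = 0.042, SE 0.14). The probes thus disagreed on the call, and the call by probe 2 was lost without either Sham rat (adjusted p = 0.15 without replicate 1 and 0.18 without replicate 2), without TBI replicate 1 (0.079) or TBI replicate 2 (0.11), and with no filter on dim probes (0.12).

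Stmn4, another neuronal stathmin, was 0.68 and −0.41 in Sham rats and 0.05, 0.94 and 1.34 in TBI rats. The drug-treated rats ranged from −0.26 to 0.96, and all 5 groups overlapped. The TBI minus Sham difference was 0.64 (95% confidence interval −0.30 to 1.58, limma adjusted p = 0.35).

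**Figure D1:**
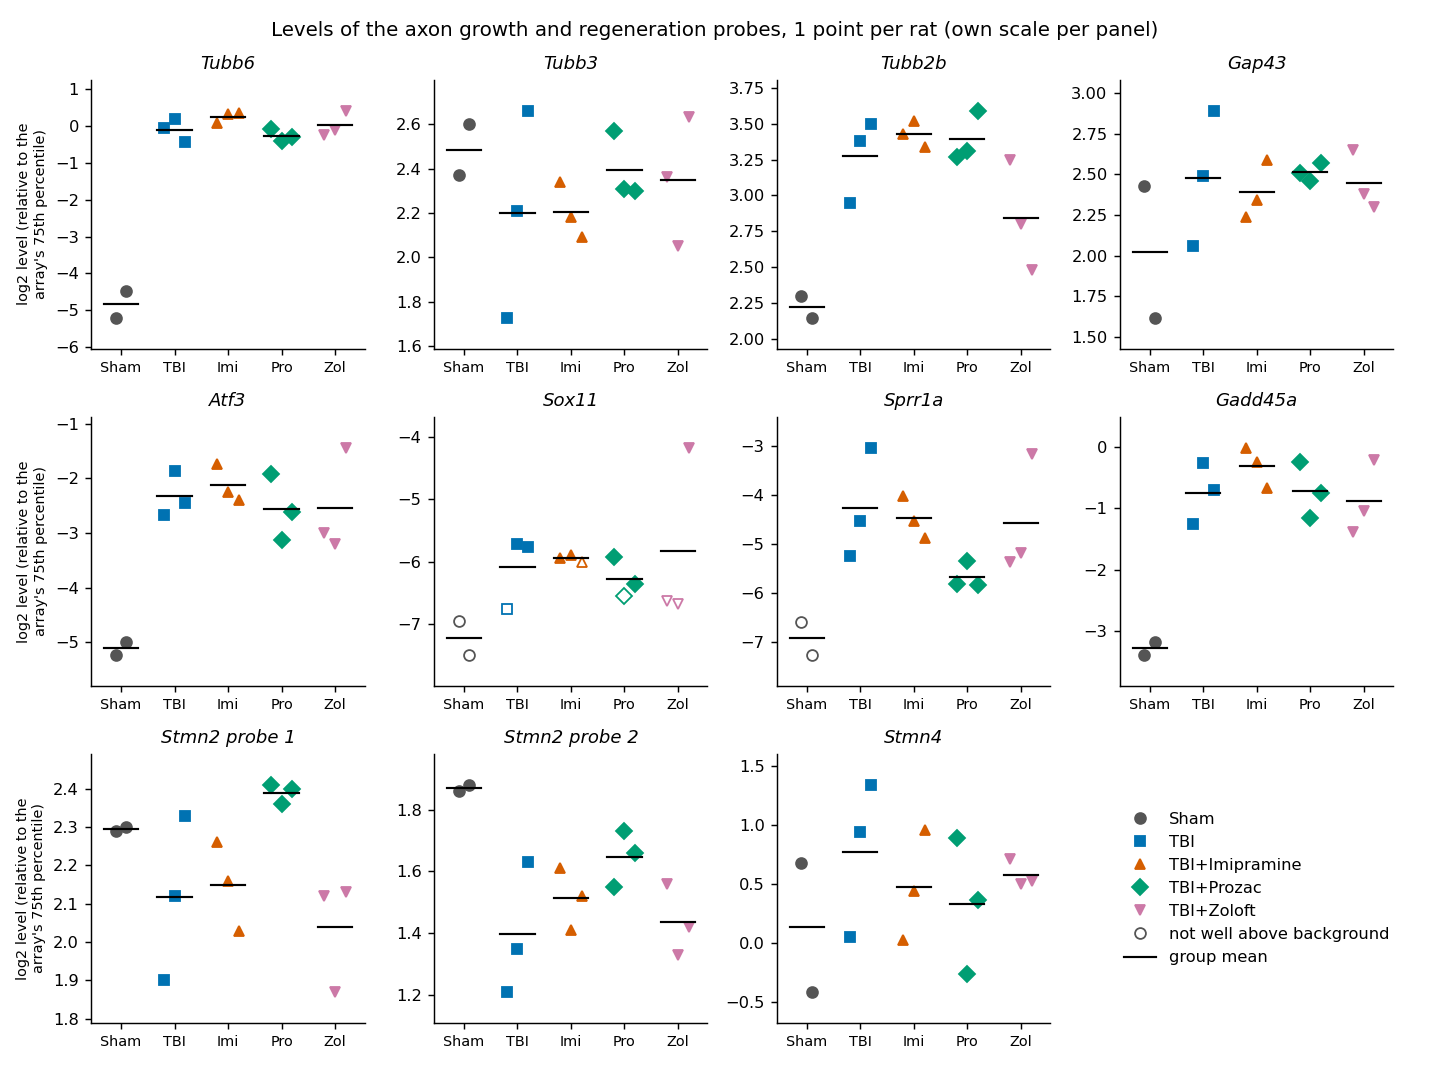
Level of each probe by rat, as log2 signal relative to the 75th percentile of its array (y axis), in the 5 groups (x axis). Each point is 1 rat, open points are not well above background, and bars mark group means. Tubb6, Atf3 and Gadd45a separate the 2 Sham rats from all 12 injured rats, while Tubb3, Gap43 and Stmn4 overlap.

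With a normexp background correction of the median spot signals, the TBI minus Sham differences were smaller for Tubb6 (3.36), Atf3 (1.69) and Gadd45a (1.99), which still passed the test, and 1.12 for Tubb2b, which also passed.

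The measured members differed in where they stood among all probes. Ranked from the highest TBI minus Sham difference, Atf3 was 89th, Gadd45a 138th and Tubb2b 839th of 17322, while Stmn4 was 1755th, Gap43 2812th, Stmn2 probe 1 11474th, Tubb3 12882nd and Stmn2 probe 2 14637th. The members also differed in how much rats of one group varied. The pooled within-group SD was 0.83 for Sprr1a, larger than that of 98% of the probes kept, 0.60 for Atf3, 0.54 for Stmn4 and 0.46 for Gadd45a, against a median of 0.22 over the probes kept. Stmn2 was the steadiest, with SDs of 0.14 and 0.13.

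Some markers of other cells also passed the test in TBI vs Sham, where 8.3% of all probes rose and 8.32% fell. In lists this small, a single call is near those shares. The part of these markers in the results was not tested. Of 5 microglia and macrophage markers, 2 rose in TBI, Cd68 (log2 difference 1.67, limma adjusted p = 0.026) and Itgam (1.05, adjusted p = 0.025), and the log2 of their summed level ran from 1.19 to 1.89 in Sham and from 2.20 to 2.34 in TBI. Of 5 astrocyte markers, only Gfap, the filament protein of reactive astrocytes, rose (1.88, limma adjusted p = 0.014), and the summed level overlapped (4.33 to 4.54 in Sham, 4.17 to 4.86 in TBI). Of 4 measured endothelial markers 1 rose, Cldn5 (0.63, limma adjusted p = 0.012), with sums of −0.43 to −0.40 in Sham and 0.13 to 0.32 in TBI. Of 6 blood markers 2 rose, S100a9 (4.0, limma adjusted p = 0.0014) and S100a8 (3.33, adjusted p = 0.0089), both abundant in neutrophils. S100a8 was above background on only 1 Sham array, so its difference rests in part on a dim value. The sum of the blood markers, which haemoglobin transcripts dominate, overlapped (5.52 to 5.92 in Sham, 5.41 to 5.72 in TBI). None of 5 markers of meninges and fibroblasts passed the test, although their sum was −0.67 to −0.51 in Sham and −0.03 to 1.09 in TBI.

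Of 6 measured neuronal markers, 1 fell in TBI, Syt1 (log2 difference −0.67, limma adjusted p = 0.029), while 8.32% of all probes fell. The summed level of the 6 was 4.51 to 4.60 in Sham and 4.10 to 4.57 in TBI. One of 5 oligodendrocyte markers fell, Mobp (−1.33, limma adjusted p = 0.033), with sums of 6.22 to 6.43 in Sham and 5.44 to 6.19 in TBI. The 3 measured markers of immature dentate neurons and the 4 measured markers of choroid plexus did not pass the test, and the choroid plexus sum varied widely within Sham (0.71 to 4.94) and within TBI (0.29 to 4.94).

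Each drug-treated group was also compared with Sham. These comparisons share the 2 Sham rats with one another and with the TBI comparison, so they are given side by side and are not independent of it. After imipramine 5 of the 9 genes rose and none fell (19.8% of all probes rose and 3.6% fell). After Prozac 4 rose and none fell (11.7% and 3.16%), and after Zoloft 3 rose and none fell (4.16% and 1.8%). The 5 after imipramine include Sprr1a, which passed the filter on dim probes only through the injured groups. With only probes above background on all 14 arrays, which leaves Sprr1a out, 4, 4 and 3 genes rose. With the 75th percentile taken over all non-control probes, 6 of the 9 passed for Zoloft, with Sprr1a and Tubb2b gained as higher and Stmn2 as lower. The medians of the 9 genes were 1.21, 1.16 and 0.62, against 0.18, 0.14 and 0.00 over all probes, and with Sprr1a at its bound in place of its fitted value the Prozac median was 0.69. The background shares depended on the scaling: of all probes called, 84.6% were higher after imipramine than in Sham, 78.8% after Prozac and 69.8% after Zoloft, but other scalings gave 46.1% to 71.3%, 43.4% to 59.1% and 54.1% to 65.6%. For TBI vs Sham the share was 49.9%, with 37.8% to 49.6% under other scalings.

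Tubb6, Atf3 and Gadd45a rose in all 3 drug groups. Relative to the median of all probes, Tubb6 stood 4.92 above Sham after imipramine, 4.44 after Prozac and 4.86 after Zoloft. Atf3 stood 2.80, 2.41 and 2.56 above Sham in the same order, and Gadd45a 2.80, 2.43 and 2.41, with limma adjusted p-values of 0.0013, 0.0058 and 0.011 for Atf3 and 3.4e-04, 0.0018 and 0.0038 for Gadd45a. Without Sham replicate 1, the Atf3 call was lost for Prozac (adjusted p = 0.054) and for Zoloft (0.087).

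Tubb2b and Sprr1a passed in some drug groups and not in others. Tubb2b rose 2.31-fold after imipramine and 2.24-fold after Prozac (limma adjusted p = 0.0026 and 0.0059), and the Zoloft difference of 0.62 (95% confidence interval 0.14 to 1.1) had adjusted p = 0.12, or 0.80 with 0.049 without Zoloft replicate 3. By its bound, the mean of Sprr1a was at least 3.7-fold above Sham after imipramine (limma adjusted p = 0.019). The bounds were 1.61-fold after Prozac (0.23) and 3.46-fold after Zoloft (0.058), and neither group passed the test. The fitted Prozac difference had a 95% confidence interval of −0.19 to 2.69, so no rise was established there. The imipramine call on Sprr1a was lost without either Sham rat (adjusted p = 0.058 without replicate 1 and 0.14 without replicate 2), without imipramine replicate 1 (0.068) or replicate 2 (0.053), and with normexp (0.22). For Zoloft the value fell below the threshold without TBI replicate 1 (0.044), TBI replicate 3 (0.034) or Zoloft replicate 1 (0.045), and was 0.11 without Zoloft replicate 3. Sox11 was above background on 2 of 3 arrays after imipramine, 2 of 3 after Prozac and 1 of 3 after Zoloft.

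Microglia and macrophage markers also passed the test in these groups, and their part in the results was not tested. After imipramine 5 of 5 rose, after Prozac 4 and after Zoloft 2, while 19.8%, 11.7% and 4.16% of all probes rose. The log2 of the summed level of these markers was 2.35 to 2.60, 2.04 to 2.65 and 1.90 to 2.31, against 1.19 to 1.89 in Sham. Of 6 blood markers, S100a8 and S100a9 rose in each drug group, by 4.35 and 4.80 after imipramine, 3.21 and 3.71 after Prozac and 4.69 and 4.37 after Zoloft on the log2 scale. The S100a8 values again rest in part on a dim value, since it was above background on only 1 Sham array. One of 4 endothelial markers rose in each, Cldn5 after imipramine (0.82) and Prozac (0.78) and Pecam1 after Zoloft (1.27), and of 5 astrocyte markers Gfap rose after imipramine (2.02). None of the 4 measured choroid plexus markers passed, although their median difference was 2.86 after imipramine, 0.63 after Prozac and 2.23 after Zoloft.

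Tubb3, Gap43, Stmn2 and Stmn4 did not pass the test in any drug group against Sham with this scaling, and Gap43 and Stmn4 did not with any other scaling. The Gap43 differences were 0.36, 0.49 and 0.42 after imipramine, Prozac and Zoloft, with 95% confidence intervals of −0.20 to 0.92, −0.07 to 1.04 and −0.14 to 0.97. The Tubb3 differences were −0.28, −0.09 and −0.13, all inside intervals that reach from −0.81 at the lowest to 0.44 at the highest. By Stmn2 probe 2 all 9 drug-treated rats lay below both Sham rats, with differences of −0.36, −0.23 and −0.44 and limma adjusted p-values of 0.089, 0.32 and 0.097.

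The stathmin and tubulin calls depended on the scaling. Stmn2 probe 1 fell by 0.39 after imipramine with the 75th percentile over all non-control probes (limma adjusted p = 0.0077), by 0.33 with quantile normalization (0.019) and by 0.39 with the series table (0.0074), and after Zoloft by 0.29, 0.33 and 0.30 (adjusted p = 0.049, 0.038 and 0.047). Stmn2 probe 2 passed as lower after imipramine and Zoloft under all 3 of these scalings, and after Prozac with the percentile over all probes (−0.42, adjusted p = 0.027) and the series table (−0.42, adjusted p = 0.025). Tubb3 fell by 0.53 after imipramine with the series table (limma adjusted p = 0.049) and had adjusted p = 0.051 with the percentile over all probes.

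**Figure D2:**
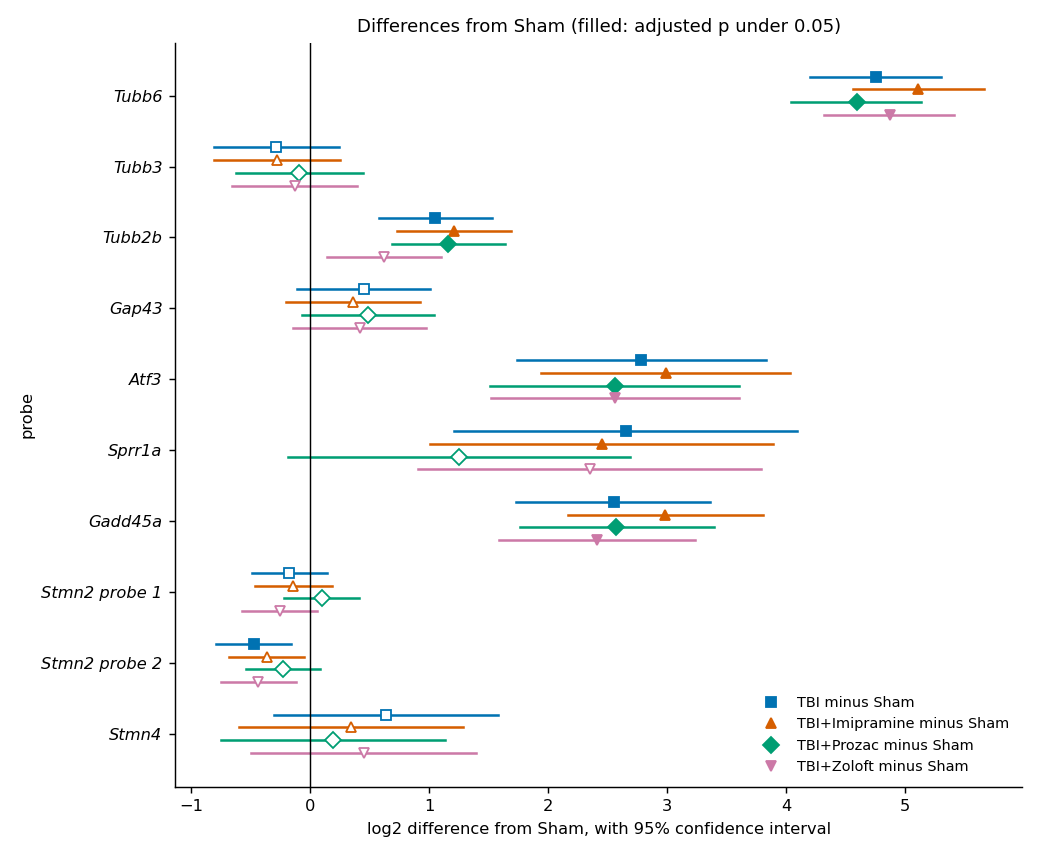
Log2 difference from Sham (x axis) for each measured probe (y axis) in the TBI and the 3 drug-treated groups, with 95% confidence intervals from the limma fit. Filled points have adjusted p below 0.05, and all comparisons share the same 2 Sham rats. Tubb6 lies between 4.59 and 5.11 in the 4 injured groups, while the intervals of Gap43 and Stmn4 cross 0 in each. Sprr1a was not above background in Sham, so its plotted values are fitted values.

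In order of mean level, Tubb6 ran from imipramine (0.26) through Zoloft (0.02), TBI (−0.09) and Prozac (−0.26) to Sham (−4.84), and only the last step passed the test (limma adjusted p = 2.8e-06). Atf3 ran from imipramine (−2.12) through TBI (−2.33), Zoloft and Prozac (both −2.55) to Sham (−5.11), again with only the last step passing (0.0058), and Gadd45a from imipramine (−0.31) through Prozac (−0.71), TBI (−0.74) and Zoloft (−0.88) to Sham (−3.29, adjusted p = 0.0038). Tubb2b ran from imipramine (3.43) through Prozac (3.39), TBI (3.28) and Zoloft (2.84) to Sham (2.22), and no neighbouring pair passed. For Gap43, Tubb3, Sprr1a and Stmn4 no neighbouring groups in the order passed the test either.

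The question of whether an antidepressant moved these genes in injured rats was asked by comparing each drug group with TBI. None of the 9 genes passed limma's test with imipramine, with Prozac or with Zoloft, while 2.85%, 0.00577% (1 probe) and 1.38% of all probes did. The number of genes with an unadjusted p below 0.05 was 0, 1 (Sprr1a) and 1 (Tubb2b), and the methods' t-test called 0 in each comparison before and after adjustment. The median differences of the 9 genes were 0.04, 0.03 and −0.14, against 0.20, 0.15 and 0.01 over all probes. Of all probes called with imipramine 99% were higher than in TBI, and of those called with Zoloft 84.1%, with 88% to 98.6% and 58.4% to 88.6% under other scalings.

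The confidence intervals cover the spread between rats and not a difference between slides. For Tubb6 the difference from TBI was 0.36 after imipramine (95% confidence interval −0.13 to 0.85), −0.16 after Prozac (−0.65 to 0.33) and 0.12 after Zoloft (−0.37 to 0.61). These values were small beside the rise of Tubb6 from Sham. For Gap43 they were −0.09 (−0.59 to 0.41), 0.04 (−0.46 to 0.54) and −0.03 (−0.53 to 0.46). For Atf3 they were wider, 0.20 (−0.73 to 1.14), −0.23 (−1.16 to 0.71) and −0.22 (−1.16 to 0.71). Gadd45a gave 0.44 (−0.29 to 1.16), 0.03 (−0.70 to 0.76) and −0.14 (−0.86 to 0.59), intervals that hold changes in either direction.

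All TBI arrays were on slide 1 and 8 of the 9 arrays of drug-treated rats on slide 2, and a fit with slide as a fixed block, which rests on the single Prozac array of slide 1, moved several of these values. Atf3 went to 1.16 after imipramine (SE 0.73), 0.41 after Prozac (SE 0.57) and 0.73 after Zoloft (SE 0.73), the last 2 with the opposite sign. Gadd45a went to 1.14, 0.50 and 0.57 (SE 0.58, 0.45 and 0.58), the Zoloft value with the opposite sign, and Tubb6 to 0.62, 0.01 and 0.38 (SE 0.41, 0.32 and 0.41). Stmn4 went from −0.30, −0.45 and −0.20 to 0.53, 0.11 and 0.64. None of the 9 genes passed the test in that fit either, and a direction for Atf3, Gadd45a or Stmn4 against TBI cannot be read from these arrays.

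The largest difference between a drug group and TBI was that of Sprr1a after Prozac, where all 3 rats lay below all 3 TBI rats (difference −1.40, 95% confidence interval −2.69 to −0.12). It passed 0.05 before adjustment but not after it (limma adjusted p = 0.46), and without TBI replicate 3 it was −0.79 (adjusted p = 0.48). On slide 1, which held the TBI arrays and a Prozac array, Prozac replicate 1 lay 1.56 below the TBI mean (a difference of −1.56) and outside the TBI range. The limma fit with slide as a block gives this same difference by construction (SE 0.87, adjusted p = 0.87), so it is not a second result. For Tubb2b after Zoloft the difference was −0.43 (95% confidence interval −0.86 to −0.01, adjusted p = 0.32), and the 2 groups overlapped. Stmn2 probe 1 after Prozac was 0.27 above TBI (−0.01 to 0.56) without overlap, but probe 2 overlapped.

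**Figure D3:**
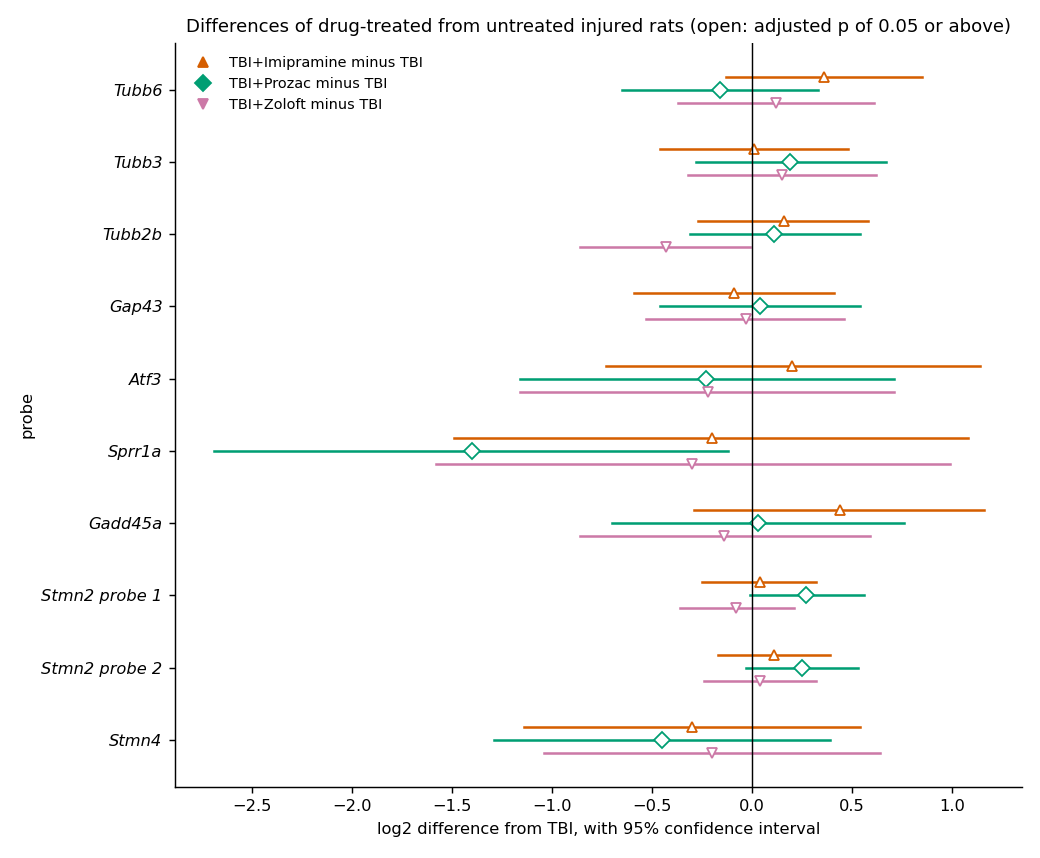
Log2 difference from TBI (x axis) for each measured probe (y axis) after imipramine, Prozac and Zoloft, with 95% confidence intervals from the limma fit. All points are open because none has adjusted p below 0.05. The widest intervals are those of Sprr1a, whose Prozac value is −1.40, and the narrowest those of Stmn2.

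The 3 drugs were given at one dose and one time and can be compared directly, over 3 pairs. None of the 9 genes passed limma's test between imipramine and Prozac (0.00577% of all probes passed), between imipramine and Zoloft (5.29%) or between Prozac and Zoloft (3.69%). Unadjusted p-values below 0.05 numbered 1, 1 and 2 in these pairs. In the F test for any difference among the 3 drugs 0 of 9 genes passed, against 3.18% of all probes, and 1 gene, Tubb2b, had an unadjusted p below 0.05 (adjusted p = 0.14). Between imipramine and Zoloft 99.2% of calls were higher with imipramine (83.2% to 97.2% under other scalings), and between Prozac and Zoloft 97.8% with Prozac (71.5% to 93.6%).

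Tubb2b came closest to a difference between the drugs. It was 0.59 higher after imipramine, a tricyclic, than after Zoloft (95% confidence interval 0.16 to 1.02, limma adjusted p = 0.091), and 0.55 higher after Prozac than after Zoloft, which are both serotonin reuptake inhibitors (0.12 to 0.97, adjusted p = 0.14). Both differences passed without Zoloft replicate 1, at 0.79 (adjusted p = 0.032) and 0.75 (adjusted p = 0.048). Neither passed without Zoloft replicate 2 or without Zoloft replicate 3. Relative to the median of all probes, the differences in the fit to all arrays were 0.41 and 0.43. Of the cell type markers, the microglial receptor Csf1r was 0.79 and 0.84 higher in the same pairs (limma adjusted p = 0.038 in each), and the neuronal factor Neurod1 was 1.03 higher after Prozac than after Zoloft (adjusted p = 0.046), and their part in the Tubb2b values was not tested. Stmn2 probe 1 was 0.35 higher after Prozac than after Zoloft (0.06 to 0.63, limma adjusted p = 0.15), and Tubb6 was 0.52 higher after imipramine than after Prozac (limma adjusted p = 0.72).

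Rats of the injured groups differed among themselves, and Atf3 and Gadd45a did so together. Across the 12 injured rats their levels had a Pearson r of 0.895 (permutation p = 0.00022, Benjamini-Hochberg adjusted 0.0022) and a Spearman rho of 0.902 (permutation p = 0.00021, adjusted 0.0021). Without the 2 rats farthest from the Atf3 median, Zoloft replicates 2 and 3, r was 0.929, and within the 8 arrays of slide 2 it was 0.907. The 4 arrays of slide 1 were too few for a value. This was 1 of 10 pairs among the 5 genes that rose in TBI, examined after their values were seen, and the only one to pass after adjustment. The permutations moved values freely across groups and slides, so differences between group means can enter r and its p-value.

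Tubb6 had an r of 0.655 with Atf3 (permutation p = 0.0238, adjusted 0.12) and a rho of 0.671 (p = 0.0205, adjusted 0.1). With Gadd45a its r was 0.612 (permutation p = 0.04, adjusted 0.13) and its rho 0.622 (p = 0.0352, adjusted 0.12). Without the 2 rats farthest in Tubb6, imipramine replicate 3 and Zoloft replicate 3, these r values were 0.602 and 0.627, and within slide 2 they were 0.761 and 0.742. Atf3 and Sprr1a had an r of 0.53 (permutation p = 0.0772, adjusted 0.19) and a rho of 0.531 (p = 0.0805, adjusted 0.16), with 0.336 without Zoloft replicates 2 and 3 and 0.873 within slide 2, so that pair rested on few rats. The 4 pairs that include Tubb2b had r values between −0.293 and 0.134, which Zoloft replicate 3 set in part: without it they lay between 0.0662 and 0.539.

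**Figure D4:**
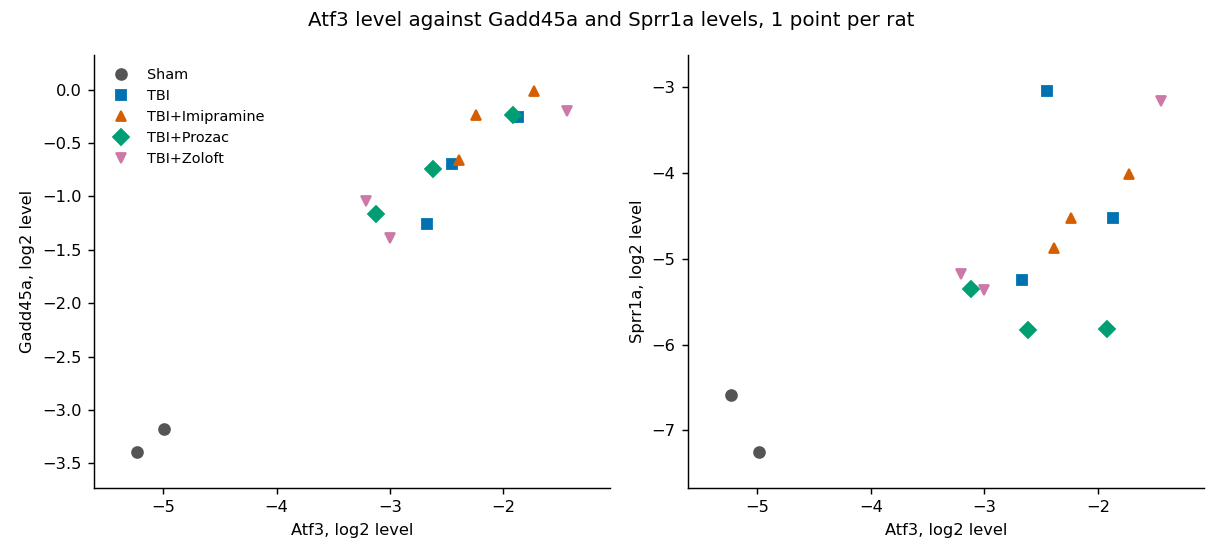
Level of Gadd45a and of Sprr1a (y axes) against that of Atf3 (x axis), each as log2 signal relative to the 75th percentile of its array, with 1 point per rat coloured by group. The 12 injured rats follow a line for Gadd45a (r = 0.895) and scatter more for Sprr1a (r = 0.53), and the 2 Sham rats lie apart at the lower left and entered neither r.

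Genes whose levels most resembled those of a member were listed as a description. Over all 14 arrays, where the step from Sham dominates, Tubb6 was most like Timp1 (r = 0.987), Pdpn (0.982) and Hspb1 (0.979), and Atf3 most like Trim47 (0.983), Tnfrsf12a (0.982) and Pdlim4 (0.979). Gap43 was most like Pcdh7 (0.915), Rpl38 (0.909) and Tac1 (0.905), and Tubb3 most like Pdzd4 (0.933), Aplp2 (0.922) and Eno2 (0.915). Over the 12 injured rats alone the lists changed. Tubb6 was then most like A3galt2 (0.875), Cd14 (0.869) and Pmm2 (0.837), Atf3 like Tbl3 (0.966), Gadd45g (0.943) and Ddx41 (0.938), Gap43 like Bmerb1 (0.943), Adcy5 (0.936) and Bex1 (0.931), and Tubb3 like Pdzd4 (0.98), Fam117b (0.938) and Aplp2 (0.936). All arrays share one scaling, and these values were the highest among the named genes kept.

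Other genes of the same biology were then counted in TBI vs Sham, where 8.3% of all probes rose and 8.32% fell. Of 14 measured genes in a list of regeneration-associated secreted and surface genes, 7 rose and none fell, with a median difference of 1.41. The name is loose, since the list also holds proteins of the cell interior such as Hspb1, Csrp3, Socs3 and Arg1. Of the 14, 3 genes (Csrp3, Plaur and Socs3) were not above background in Sham and passed the filter on dim probes only through injured groups. Of the other 11 genes 5 rose, and with the 3 at their bounds the median of the list was 0.84. The genes with the largest fitted differences were the small heat-shock protein Hspb1 (log2 difference 4.80, SE 0.54, limma adjusted p = 2.6e-04), the muscle LIM protein Csrp3 (at least 3.91-fold, not above background in Sham, adjusted p = 2.8e-04), the hyaluronan receptor Cd44 (2.77, adjusted p = 2.0e-04) and the urokinase receptor Plaur (above background on 1 of 3 TBI arrays, so no fold is given, adjusted p = 0.0054). Of 10 measured transcription factors of the regeneration programme, 1 rose, Myc (1.17, limma adjusted p = 0.039), and the median was 0.41. Of 8 relatives of Gadd45a and p53 targets, 1 rose, Gadd45g (1.88, limma adjusted p = 0.047), with a median of 0.65. The counts for these last 2 lists were near the share of all probes that rose.

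In the cytoskeletal and inhibitory lists the counts were small and near the shares over all probes, of which 8.3% rose and 8.32% fell. Of 10 other measured tubulins, none rose and 1 fell, Tuba8 (log2 difference −1.37, limma adjusted p = 0.0066), with a median of −0.02, so Tubb6 and Tubb2b were the only tubulin genes among those measured in these lists to rise. Of 16 measured genes of the growth cone and axonal cytoskeleton, none rose and 1 fell, the adhesion molecule Ncam1 (−0.99, limma adjusted p = 0.0098), with a median of −0.10. Of 14 measured growth inhibitors and their receptors, none rose and 1 fell, the matrix proteoglycan Bcan (−0.83, limma adjusted p = 0.02), with a median of −0.16.

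With a drug, the same lists were again compared with Sham. The shares of all probes that rose were 19.8% after imipramine, 11.7% after Prozac and 4.16% after Zoloft. Of the 14 genes in the list of secreted and surface genes, 8, 7 and 5 rose in the same order. Csrp3, Plaur and Socs3, which passed the filter on dim probes only through injured groups, are among the 14. These counts are therefore not independent of that filter. Of the 10 transcription factors, 5, 1 and 2 rose, and the Prozac share was close to that of all probes. Myc rose in each drug group (1.39, 1.17 and 1.31 on the log2 scale, limma adjusted p = 0.014, 0.043 and 0.048). None of the growth cone and axonal cytoskeleton genes passed the test in any drug group. No gene of these 6 lists passed the test in any drug group against TBI. Over all probes, 2.85% passed with imipramine, 0.00577% with Prozac and 1.38% with Zoloft. Shares this low leave few calls to be seen in lists of this size.

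**Figure D5:**
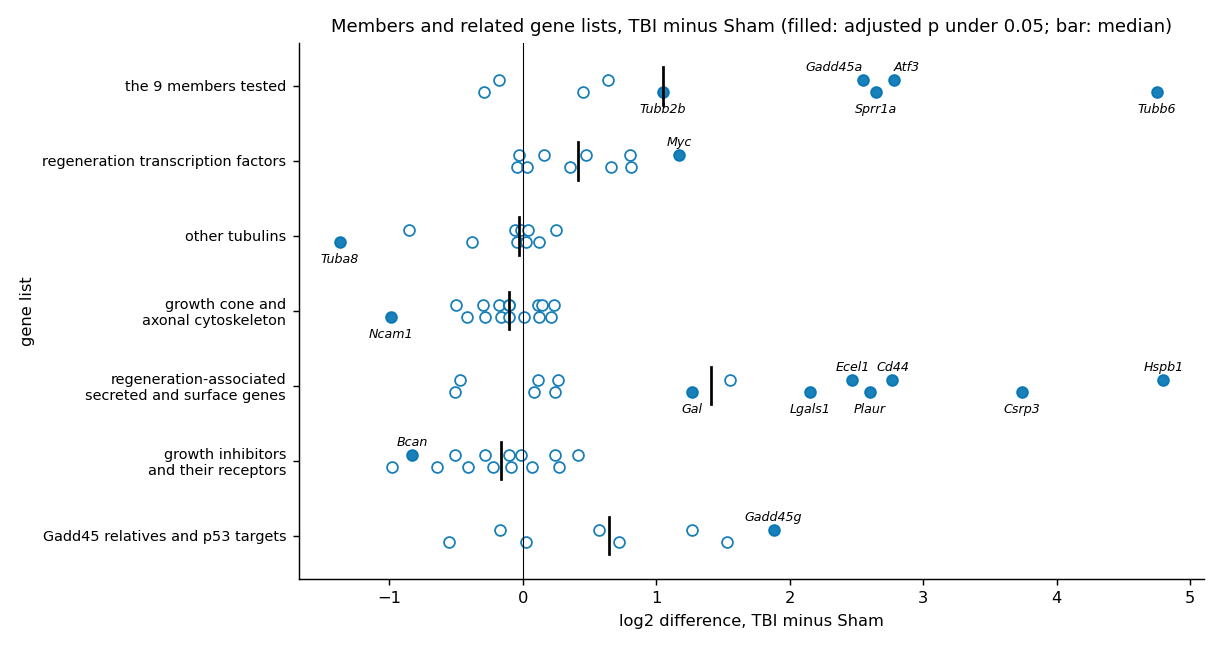
Log2 difference TBI minus Sham (x axis) for the measured members and for the genes of 6 related lists (y axis), 1 point per gene. Filled points have limma adjusted p below 0.05, with the named ones labelled. The list of secreted and surface genes, which also holds proteins of the cell interior, lies to the right with a median fitted difference of 1.41. The other tubulins and the growth cone genes lie around 0.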

How the data were processed

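Whole-hippocampus RNA from 14 rats was measured on 1-colour Agilent arrays. The authors scanned them and deposited intensity values per spot (processed signal, median spot and background signal, and background flags) from Agilent Feature Extraction 11.5.1.1, together with a series table. On every array at least 97.2% of its intensity values lay within 5% of the scanner value divided by 1 constant, and the table has a floor of 0.01. The miRNA arrays of the series were not used here. Spots flagged as outliers were left out, and the processed signal was averaged over the remaining spots of a probe. This mean was divided by each array's 75th percentile over probes above background and then log2 transformed. A probe counted as above background where over 0.5 of its spots were flagged so, and was kept if at least 1 group had it above background on all its arrays (17322 of 30367 probes). Symbols came from the RefSeq table (GRCr8) by accession, which named 18643 probes, 11902 of them kept, and no coordinate of a probe was taken from it. A gene with several kept probes was counted by the one with the highest mean.

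One limma model (version 3.58.1, R 4.3.3) with the 5 groups as terms gave all contrasts, with Benjamini-Hochberg adjustment over all kept probes and a threshold of 0.05. The p-values measure the spread between separate rats. All members were named, with up to 4 called genes of each list by size of the TBI vs Sham difference. The members, lists and tests were chosen with earlier results of these data known, so no count over them is independent support. Correlations used 100000 permutations in SciPy 1.17.1. The alternatives were other scalings, quantile normalization, normexp (offset 50), the series table, no filter or a stricter one, slide and replicate blocks, each array left out, and the methods' t-test with its fold limit of 1.2. Normexp used median signals in place of the planned mean signals. The number of arrays limits the precision. The fit was tested on simulated data.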

Additional observations from a re-analysis of the deposited data

Results flagged for a closer look

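Some genes of the related lists differed between the drug groups in the limma fit, each with ranges that do not overlap, while no member did. Over all probes, 5.29% passed between imipramine and Zoloft and 3.69% between Prozac and Zoloft. A few calls among the listed genes, and none among the members, are near those shares. Arg1, an arginase linked to axon growth, was 1.05 higher on the log2 scale after imipramine than after Zoloft (SE 0.26, limma adjusted p = 0.039, −0.95 ± 0.45 against −2.00 ± 0.39, SD, n = 3 each). Rhoa, the small GTPase downstream of growth inhibitors, was 0.53 higher after imipramine than after Zoloft (SE 0.13, limma adjusted p = 0.041, 0.70 ± 0.16 against 0.16 ± 0.17). Rtn4r, the Nogo receptor, was 0.60 higher after Prozac than after Zoloft (SE 0.12, limma adjusted p = 0.029, −0.82 ± 0.10 against −1.42 ± 0.01). Ptprs, a receptor for chondroitin sulfate proteoglycans, was 0.67 higher after Prozac than after Zoloft (SE 0.12, limma adjusted p = 0.02, −0.56 ± 0.02 against −1.23 ± 0.14). The median of all probes was itself 0.18 higher in the first of these comparisons and 0.11 higher in the second. Without imipramine replicate 2, 0 probes passed between imipramine and Zoloft, and with slide as a fixed block 0 passed between Prozac and Zoloft.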

How the results depend on the processing

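For the members in TBI vs Sham and those called in a drug group vs Sham, 565 values were computed under other settings. Of these, 539 kept their direction and their side of the threshold. A further 25 kept the direction but lost the call, 1 gained it (Stmn2, by its dimmer probe), and 0 reversed. Leaving out an array of a group outside the comparison changes only the estimate of spread. The values from those fits could not reverse, so these counts overstate how far the directions were tried. For the 69 member values not called in the other comparisons, 22 of 1936 values under other settings passed the threshold and 126 had the opposite sign. The number of members called in TBI vs Sham (5) ranged from 3 to 5 when one array was left out, the 3 arising without Sham replicate 2, where Sprr1a and Tubb2b were lost. In imipramine vs Sham (5) it was 6 with the 75th percentile over all non-control probes and with quantile normalization (Stmn2 gained) and 7 with the series table (Stmn2 and Tubb3 gained). In Zoloft vs Sham (3) it was 6 with the 75th percentile over all non-control probes (Sprr1a, Stmn2 and Tubb2b gained), 5 with quantile normalization and 5 with the series table (Sprr1a and Stmn2 gained in each), and 2 to 4 when one array was left out. By the methods' t-test after adjustment it was 0 in TBI vs Sham, in Prozac vs Sham (4 by limma) and in Zoloft vs Sham. Between drugs, where limma called 0, the methods' t-test without adjustment called 2 for imipramine vs Prozac (Sprr1a and Tubb6) and 1 for Prozac vs Zoloft (Stmn2), and leaving out one array gave 0 to 1 for imipramine vs Zoloft and for Prozac vs Zoloft (Tubb2b, without Zoloft replicate 1). The cause of these changes was not tested.

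With the replicate block, 5 members were called in TBI vs Sham, and 5, 4 and 3 in imipramine, Prozac and Zoloft vs Sham, as without it, while Stmn2 probe 2 lost its call (adjusted p = 0.064). Same-numbered arrays correlated between −0.23 and 0.23, so the numbers were not taken as pairing.

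Over all probes, limma counts moved by more than 1.5 times under some settings: from 2879 to between 1268 and 4467 in TBI vs Sham, from 4046, 2579 and 1031 to as few as 2022, 711 and 232 in imipramine, Prozac and Zoloft vs Sham, all without 1 Sham array, and from 494 and 239 to 2 and 1 in imipramine and Zoloft vs TBI with slide as a fixed block. They rose to 2178 in Zoloft vs Sham with quantile normalization, to 998 in imipramine vs TBI with slide as a random block and to 824 in Zoloft vs TBI with the 75th percentile over all non-control probes. Prozac vs TBI went from 1 to as many as 121 without Prozac replicate 1, and imipramine vs Prozac from 1 to between 0 and 3. Imipramine vs Zoloft went from 917 to 0 without imipramine replicate 2, Prozac vs Zoloft from 639 to 0 with slide as a fixed block, and the F test from 551 to 3 within slide 2. Low signal limits Sprr1a and Sox11, whose Sham values are bounds.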
